A study of Mus musculus with 4 samples.

Results

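The brain endothelium is sealed by tight junctions, and 9 genes that encode their parts were examined in *Foxq1*-deleted brain endothelial cells (ECs): *Cldn5*, *Ocln*, *Cldn12*, *Lsr*, *Esam*, *F11r*, *Jam2*, *Tjp1* and *Cgnl1*. They were chosen by name, and all 9 were among the 12693 gene symbols measured. RNA-seq was available for 2 wild-type (WT) and 2 *Foxq1* conditional knockout (cKO) samples, all from C57BL/6 embryos at embryonic day 18. The knockout genotype is FOXQ1fl/fl;Tie2-Cre, a floxed *Foxq1* allele recombined by a Cre that the *Tie2* promoter drives, and the study's methods describe the controls as littermates without Cre. *Tie2* is also active in blood cell lineages, and the study describes this Cre as specific to vascular ECs; recombination in other cells was not measured here. The labels name brain as the tissue, and the methods add that cells were isolated from the cortex by flow cytometry for CD31, an endothelial surface protein. Whether each sample came from 1 embryo or from a pool is not given in the sources used here. The spread between samples that enters the p-values may therefore be technical. In limma, the main test below, the spread of a gene is also partly borrowed from genes of similar level.

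Tight junctions are belts of membrane contact that close the gap between neighbouring cells. Claudins, which span the membrane several times, form the sealing strands, and occludin sits within them. Where the corners of adjoining cells meet, angulins such as LSR and the protein tricellulin close the remaining pore. Junctional adhesion molecules of the immunoglobulin family hold the membranes together, and cytoplasmic scaffold proteins tie the complex to actin. In the brain, this seal keeps solutes from passing between ECs and is a central part of the blood-brain barrier.

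None of the 9 tight junction genes passed the test for a difference between *Foxq1* cKO and WT ECs, given the spread between samples. Their log2 fold changes lay between -0.25 for *Cldn12* and 0.24 for *Jam2*, with a median of -0.079. Group differences were tested with limma across 12472 genes with a mean of at least 10 normalized counts, on log2 of the value plus 1, a scale that understates the change of low genes. At an unadjusted p under 0.05, 0 of the 9 genes passed, against 5.22% of all genes tested (651 genes). At an adjusted p under 0.05 no gene of the transcriptome passed in limma or in edgeR, whereas DESeq2 gave 59 genes, 0.473% of those tested, and none was a tight junction gene. On reads recovered from the table, 0 of the 9 passed an unadjusted p of 0.05 in DESeq2 or in edgeR, where 6.45% and 4.92% of all genes did. In limma, 6.61% of the 3844 genes with a mean of at least 1000 normalized counts passed. All these shares are too small to read anything from 0 of 9 genes.

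The data limit how large an undetected change could be. For 8 of the 9 genes, the 95% interval of the log2 fold change lay within a 2-fold change in either direction, and the exception was *Cldn12*. Of all genes tested, 23.1% had an interval that narrow, and among the 3844 genes with a mean of at least 1000 normalized counts the share was 66.8%. For 5 genes, *Cldn5*, *Lsr*, *Esam*, *F11r* and *Cgnl1*, the interval lay within a 1.5-fold change, against 4.87% of all genes and 15.8% of the genes with a mean of at least 1000. These limits were chosen after the values were seen. The intervals borrow their spread from genes of similar level, and with limma's variance prior set without that trend the count within 2-fold was 5 of 9. The count within 1.5-fold was not computed in that setting. There the unadjusted p of *Cldn5* was 0.640 in limma, against 0.161 with the trend at the same log2 fold change, so its interval was wider. The limit of 1.5-fold thus rests on the trend.

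The deleted gene gave the check of the labels. *Foxq1*, the forkhead transcription factor removed in these embryos, stood at 353 and 297 normalized counts in WT, and at 5.44 and 32.6 after deletion, so 5.84% of the WT mean remained. Its log2 fold change was -4.47 (standard error 1.04, unadjusted p = 0.00507, adjusted p = 0.857 in limma). Even this loss did not pass adjustment. Its exons share 3200 bases with *A530084C06Rik* on the opposite strand, a gene that was not listed. The assignment of reads in those bases is uncertain. Read depth was between 15827166 and 21466436 reads on listed genes per sample. All 20 endothelial markers examined were listed, and their summed level was 397552 and 379648 normalized counts in WT against 329742 and 359010 in *Foxq1* cKO samples, so both of the latter were lower. Pericyte transcripts were present too, and not at trace level: 11 of 15 pericyte and smooth muscle markers were listed. Their summed level was 162705 and 159416 normalized counts in WT against 166946 and 151879 in *Foxq1* cKO samples. This sum was 0.880% to 0.969% of all normalized counts, led by *Rgs5* at 89164 to 93044. *Acta2*, *Tagln*, *Myh11* and *Cnn1* were not listed. Values given for ECs are those of the sorted samples, which held these transcripts too. Summed neural markers (17 of 20 listed) held 0.127% to 0.159%, microglial markers (14 of 14) 0.0479% to 0.0753%, erythroid markers (7 of 8) 0.0884% to 0.119% and meningeal markers (3 of 6) 0.0326% to 0.0545%. Of 10 epithelial and choroid plexus markers 1, *Ttr*, was listed, at 1.99 to 41.3 normalized counts. The neural and microglial sums, like the endothelial one, did not overlap between the groups and lay below WT after deletion. Such sums weigh abundant genes most. The median log2 fold changes of the single markers were -0.38, -0.032 and -0.041 in that order, against 0.0086 over all genes tested. Without overlap, 6 neural markers were lower and 1 higher, 4 microglial markers lower and 2 higher, and 9 endothelial markers lower and 2 higher. Of all genes tested, 36.0% did not overlap. The part of these cell types in the results was not tested.

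**Figure D1:**
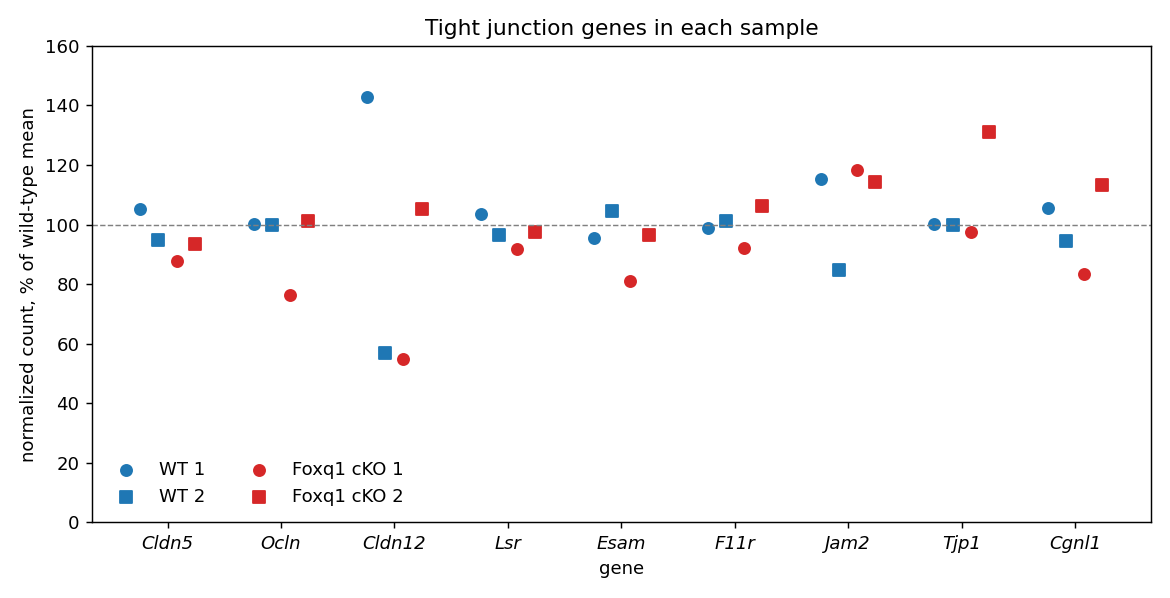
Normalized count of each tight junction gene in each sample, as a percentage of the mean of the WT samples (y axis, from 0); blue points are WT and red points *Foxq1* cKO, with circles for replicate 1 and squares for replicate 2. Only *Cldn5* has both *Foxq1* cKO points below both WT points, and *Foxq1* cKO 1 is the lowest point for 8 of the 9 genes.

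*Cldn5*, the principal claudin of brain ECs, was by far the most abundant of the 9 genes. Its normalized count was 151977 in WT 1, 136639 in WT 2, 126706 in *Foxq1* cKO 1 and 134826 in *Foxq1* cKO 2. It ranked 4 among all genes by reads in every sample and took between 0.735% and 0.840% of all reads. Both *Foxq1* cKO values lay below both WT values, by a narrow margin: the lower WT sample and the higher *Foxq1* cKO sample were less than the spread within either group apart. The groups did not overlap, in either direction, for 1 of the 9 tight junction genes and for 36.0% of all genes tested, of which 2249 were lower and 2239 higher in *Foxq1* cKO samples.

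The mean of *Cldn5* in *Foxq1* cKO ECs was 90.6% of the WT mean. On the log2 scale the difference was -0.14 (standard error 0.088, 95% interval -0.36 to 0.074), which did not pass the test (adjusted p = 0.857 in limma). Expressed as a level, the interval runs from 78.1% to 105% of WT. Its width rests on the trend in limma's variance prior. Without the trend the interval was wider (unadjusted p = 0.640 in limma, against 0.161). With 1 sample left out, the log2 fold change lay between -0.22 (without WT 2) and -0.064 (without WT 1), with no unadjusted p under 0.05. With quantile normalization the change was 0 by construction, since the rank of *Cldn5* was the same in all samples. Of the 20 endothelial markers, 9 were likewise lower without overlap in *Foxq1* cKO samples and 2 were higher. Of the 3844 genes with a mean of at least 1000 normalized counts, 903 were lower without overlap and 603 higher. At an unadjusted p under 0.05 in limma, 2 of the 20 markers were lower and 0 higher, against 3.05% and 2.17% of all genes tested. After the samples were scaled to equal median levels of these markers, a setting added after seeing the data that moved the median of all genes to 0.13, the log2 fold change of *Cldn5* was -0.023. In bulk samples, fewer cells of a type and less RNA per cell cannot be told apart.

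*Ocln* encodes occludin, a membrane protein of the strands that modulates their permeability. It stood at 6287 and 6283 normalized counts in WT ECs, and at 4789 and 6364 in *Foxq1* cKO ECs. The WT samples were nearly equal, and the *Foxq1* cKO samples fell on either side of them, so the groups overlapped. Its log2 fold change of -0.19 did not pass (standard error 0.185, interval -0.64 to 0.27, adjusted p = 0.893 in limma). Without *Foxq1* cKO 1 it was 0.018.

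*Cldn12*, a claudin also found in brain ECs, was the least abundant and the least precisely measured of the 9 genes. WT 1 and WT 2 gave 845 and 337 normalized counts, *Foxq1* cKO 1 and 2 gave 323 and 623, from 1003, 338, 297 and 612 reads in that order. The WT samples differed from each other 2.51-fold and the *Foxq1* cKO samples 1.93-fold, more than the group means did. The interval of its log2 fold change of -0.25 (standard error 0.603) reached from -1.72 to 1.22 (adjusted p = 0.960 in limma), so a change of 2-fold in either direction was not detectable. With 1 sample left out at a time the value ran from -0.91 to 0.41, and it was positive without WT 1 or without *Foxq1* cKO 1.

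*Lsr* encodes an angulin, the membrane protein that marks tricellular contacts and recruits tricellulin there. It was among the steadiest of the 9, with 3525 and 3287 normalized counts in WT, and 3124 and 3321 in *Foxq1* cKO ECs. The groups overlapped, since *Foxq1* cKO 2 lay above WT 2. Its log2 fold change was -0.079 (standard error 0.176, interval -0.51 to 0.35, adjusted p = 0.958 in limma). A noncoding gene on the opposite strand, *Gm4673*, shares 946 exon bases with *Lsr*, 43.6% of its exon length. *Gm4673* was low and uneven, from 17.7 in WT 1 to 172 normalized counts in WT 2, with 35.9 and 88.5 in *Foxq1* cKO samples. The study describes its RNA-seq as based on the Smart-seq2 protocol. Whether reads were counted by strand is not given in the sources used here, so the assignment of reads in that stretch is uncertain.

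Among the adhesion molecules, *Esam* had the second highest level of the 9 genes. ESAM is an immunoglobulin-like protein of endothelial junctions and platelets. In WT it had 21352 and 23385 normalized counts, in *Foxq1* cKO samples 18123 and 21595, and the groups overlapped by a small margin between WT 1 and *Foxq1* cKO 2. The difference was -0.18 on the log2 scale (standard error 0.132, interval -0.50 to 0.15, adjusted p = 0.870 in limma).

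*F11r*, which encodes JAM-A, an adhesion molecule that helps to set up cell polarity at new junctions, was the gene with the smallest difference. It had 4866 and 4991 normalized counts in WT against 4534 and 5233 in *Foxq1* cKO ECs. The WT values lay between the *Foxq1* cKO values, and the *Foxq1* cKO mean was 99.1% of the WT mean. Its log2 fold change was -0.017 and did not pass (standard error 0.163, interval -0.41 to 0.38, adjusted p = 0.991 in limma).

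*Jam2*, which encodes the related JAM-B, had 4436 and 3256 normalized counts in WT ECs, against 4554 and 4397 in *Foxq1* cKO ECs. WT 2 stood apart from the other samples, which were close to each other. A log2 fold change of 0.24 was fitted (standard error 0.205, interval -0.26 to 0.74, adjusted p = 0.882 in limma). Without WT 2 it was 0.013. Neither *F11r* nor *Jam2* passed the test.

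The scaffold gene *Tjp1* encodes ZO-1, which binds claudins and occludin and links them to actin. Levels of 6829 and 6796 normalized counts in WT compare with 6643 and 8931 in *Foxq1* cKO samples. A single sample, *Foxq1* cKO 2, was high, and the others were nearly equal. The log2 fold change was 0.18 (standard error 0.182, interval -0.27 to 0.62, adjusted p = 0.893 in limma), and it was -0.036 without *Foxq1* cKO 2.

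*Cgnl1* encodes paracingulin, a cytoplasmic junction protein that binds regulators of small GTPases. It had 5044 and 4511 normalized counts in WT, while *Foxq1* cKO ECs had 3982 and 5406. As for *F11r*, the *Foxq1* cKO samples enclosed the WT samples. The log2 fold change was -0.040 (standard error 0.204, interval -0.54 to 0.46, adjusted p = 0.982 in limma), and it was 0.18 without *Foxq1* cKO 1.

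**Figure D2:**
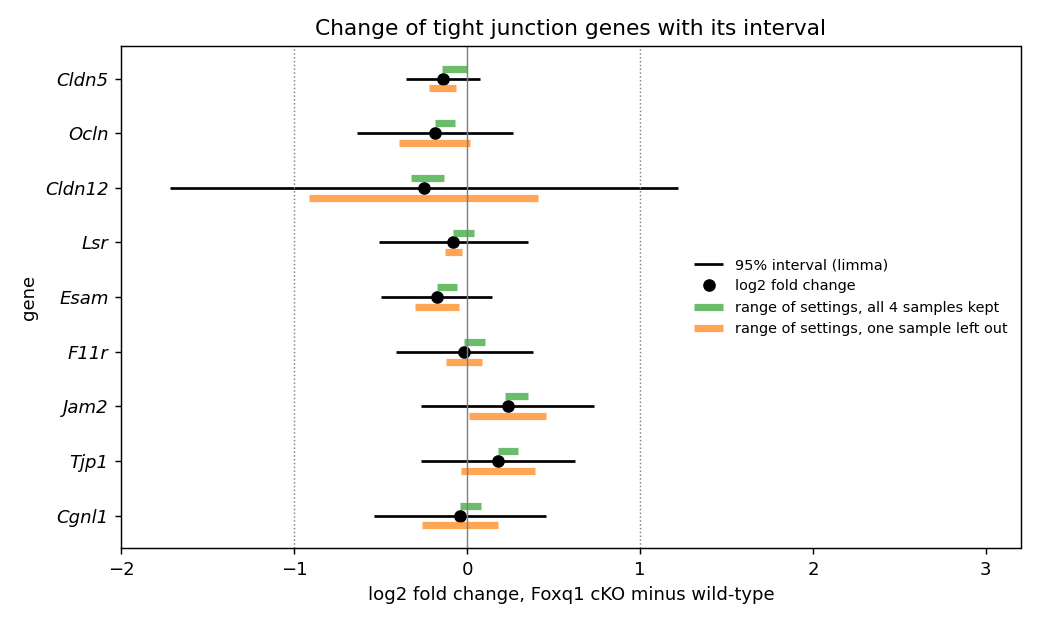
Log2 fold change (*Foxq1* cKO minus WT, x axis) of each tight junction gene with its 95% interval from limma; green bars give the range over 11 other settings with all 4 samples and orange bars the range with 1 sample left out, and dotted lines mark a 2-fold change. Every interval includes 0, and the interval of *Cldn12* alone crosses the dotted lines.

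The sample *Foxq1* cKO 1 had the lowest value of the 4 samples for 8 of the 9 genes, with *Jam2* as the exception. Over all genes tested, 24.7% had their lowest value in this sample. It also had the lowest summed level of the endothelial markers. Leaving it out moved the median log2 fold change of the 9 genes from -0.079 to 0.087, and leaving out *Foxq1* cKO 2 moved it to -0.19. The part of this sample in the negative sign of 7 of the 9 fold changes was not tested beyond these values. Scaling to the endothelial markers divides each sample by 1 factor. By construction it raised all 9 log2 fold changes by nearly the same amount, so decreases became smaller and increases larger. They were then -0.070 for *Ocln*, -0.13 for *Cldn12*, -0.058 for *Esam*, 0.35 for *Jam2* and 0.29 for *Tjp1*, while *F11r*, *Cgnl1* and *Lsr* turned positive at 0.10, 0.077 and 0.038. In none of the 11 other settings with all samples, nor in the 4 fits with 1 sample left out, did any of the 9 genes have an unadjusted p under 0.05.

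Levels can be compared between genes after division by exon length, taken from the GENCODE M21 annotation of GRCm38. Per kilobase of exon, *Cldn5* had a WT mean of 101912 normalized counts, rank 2 among 12678 genes with a length. *Esam* followed at 7802, and then came *F11r* at 1851, *Lsr* at 1568, *Ocln* at 1489, *Tjp1* at 872, *Jam2* at 636, *Cgnl1* at 609 and *Cldn12* at 140. The order was the same in the *Foxq1* cKO means. Within each of the 4 samples every gene lay below the one before it in this order, except that *Cgnl1* lay below *Jam2* in 3 of the 4. The ranges over the samples overlapped for *Lsr* and *Ocln*, for *Ocln* and *Tjp1* and for *Jam2* and *Cgnl1*. *Lsr* was divided by its full exon length, of which 43.6% overlaps *Gm4673*. Read assignment there is uncertain, so the place of *Lsr* next to *F11r* and *Ocln* is uncertain too. With the longest transcript as the length, the order of the means was kept, but *Ocln* then lay below *Lsr*, and *Jam2* below *Tjp1*, in 2 of the 4 samples. The order of these neighbours within single samples thus depends on the length used.

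**Figure D3:**
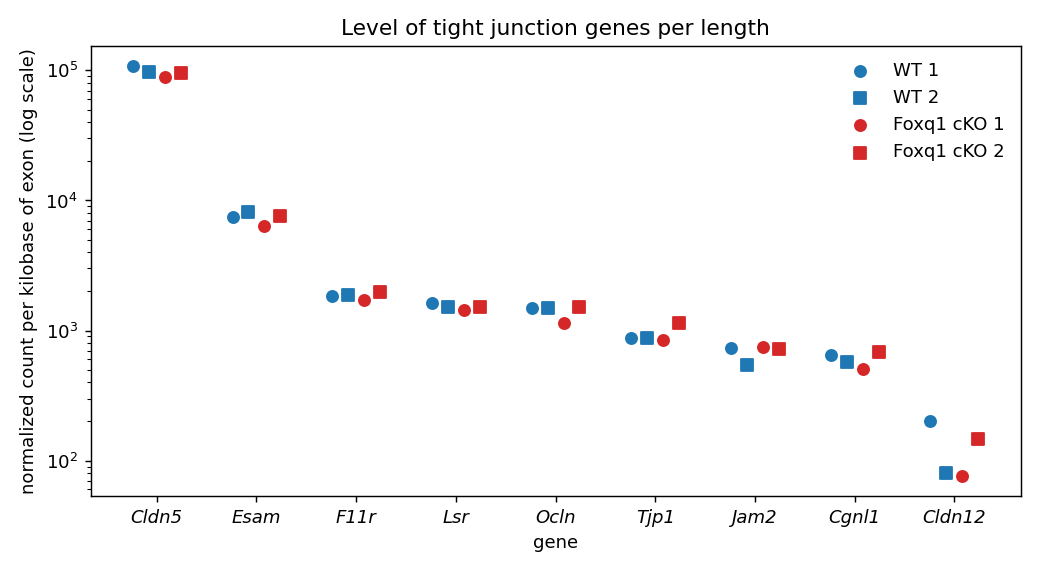
Normalized count per kilobase of exon (log axis) of the 9 tight junction genes in each sample, ordered by the WT mean; colours and shapes mark genotype and replicate. *Cldn5* lies between 89482 and 107329, *Esam* between 6321 and 8157, and *Cldn12* is lowest with the widest scatter.

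In GRCm38 the 9 genes are spread over several chromosomes. *Cldn5* (ENSMUSG00000041378) lies at chr16:18776847-18778262 on the plus strand and has a single annotated transcript of 1416 bases. *Jam2* is on the same chromosome at chr16:84774123-84825928, plus strand. *Ocln* lies at chr13:100496507-100552718 on the minus strand, on the chromosome of *Foxq1*, which is at chr13:31556134-31560976. *Tjp1* (chr7:65296165-65527781) and *Lsr* (chr7:30957770-30973464) are on the minus strand of chromosome 7. *Esam* (chr9:37528078-37538319, plus strand) and *Cgnl1* (chr9:71626509-71771602, minus strand) share chromosome 9. *F11r* is at chr1:171437535-171464603 on the plus strand and *Cldn12* at chr5:5489537-5514958 on the minus strand. Apart from *Lsr*, none of the 9 shares exon bases with another annotated gene.

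The letters GTTTC, which the study associates with FOXQ1 binding near start sites, were searched in RefSeq promoter windows (GRCm38.p6, 250 bases before to 50 after each start site), on both strands. Windows were matched by symbol for 7 of the 9 genes, all but *Esam* and *Jam2*. The letters occurred in 6 of the 7, *Lsr* being the exception, and in 48.9% of all genes with a window. The letters TGTTTAC, a general forkhead core that does not overlap GTTTC, occurred in 0 of the 7 and in 4.05% of all genes. A match in letters is a description and not a binding site, and no binding data were analysed here. The matches of the strand genes *Cldn5* and *Ocln* and of the scaffold gene *Tjp1* are printed along the gene's strand, with the searched letters or their reverse complement (GAAAC) in capitals. In order, they lie at chr16:18776613-18776633 and chr16:18776688-18776708 (plus strand), and at chr13:100552703-100552723 and chr7:65371370-65371390 (minus strand). The *Tjp1* window belongs to a start site inside the gene as GENCODE annotates it.
*Cldn5*, first match: ctaggacaGAAACtggtaggg
*Cldn5*, second match: cgcccgtgGTTTCagtaactg
*Ocln*: ccatcggaGTTTCaggtgaat
*Tjp1*: cggcagcgGAAACcgcctagc

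Other parts of the tight junction were read from a list of 58 further genes, of which 29 were listed and tested. Of these, 1 was higher and 1 lower at an unadjusted p under 0.05 in limma, where 2.17% and 3.05% of all genes tested were higher and lower, and none passed adjustment. The median log2 fold change of the 29 genes was -0.029, against 0.0086 for all genes tested. Of 20 other claudins searched, *Cldn10* alone was listed, and the table holds no gene with fewer than 1 read in any sample.

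*Ildr2*, which encodes an angulin related to LSR, was the gene higher at that level. Its level was 1957 and 2463 normalized counts in WT, but 4223 and 3024 in *Foxq1* cKO ECs, so the groups did not overlap. Its log2 fold change was 0.70 (standard error 0.247, unadjusted p = 0.0292, adjusted p = 0.857 in limma). Its unadjusted p was 0.103 without WT 1, 0.198 without *Foxq1* cKO 1 and 0.114 in limma without a trend. *Marveld2*, which encodes tricellulin and was picked after its values were seen, had 1062 and 337 normalized counts in WT, and 281 and 955 in *Foxq1* cKO samples, a spread of 3.15-fold and 3.40-fold within the groups.

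The adherens junction, which lies beside the tight junction and is built on VE-cadherin and catenins, was read from 18 genes, of which 17 were tested. None had an unadjusted p under 0.05 in limma, where 5.22% of all genes did, a share too small to read anything from 0 of 17. Their median log2 fold change was -0.11, against 0.0086 over all genes tested. *Ptprb*, *Pecam1* and *Ctnna1*, the 3 with the most reads, had log2 fold changes of -0.21, -0.23 and -0.22, with adjusted p-values of 0.868, 0.857 and 0.873 in limma. PTPRB is a phosphatase that acts on VE-cadherin, PECAM1 is the CD31 antigen used for the sort, and alpha-catenin couples the cadherin complex to actin. *Cdh5*, the VE-cadherin gene, named after its values were seen, had 4570 and 4269 normalized counts in WT, and 4769 and 4803 in *Foxq1* cKO ECs, so the log2 difference was 0.12 (standard error 0.157, adjusted p = 0.914 in limma).

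**Figure D4:**
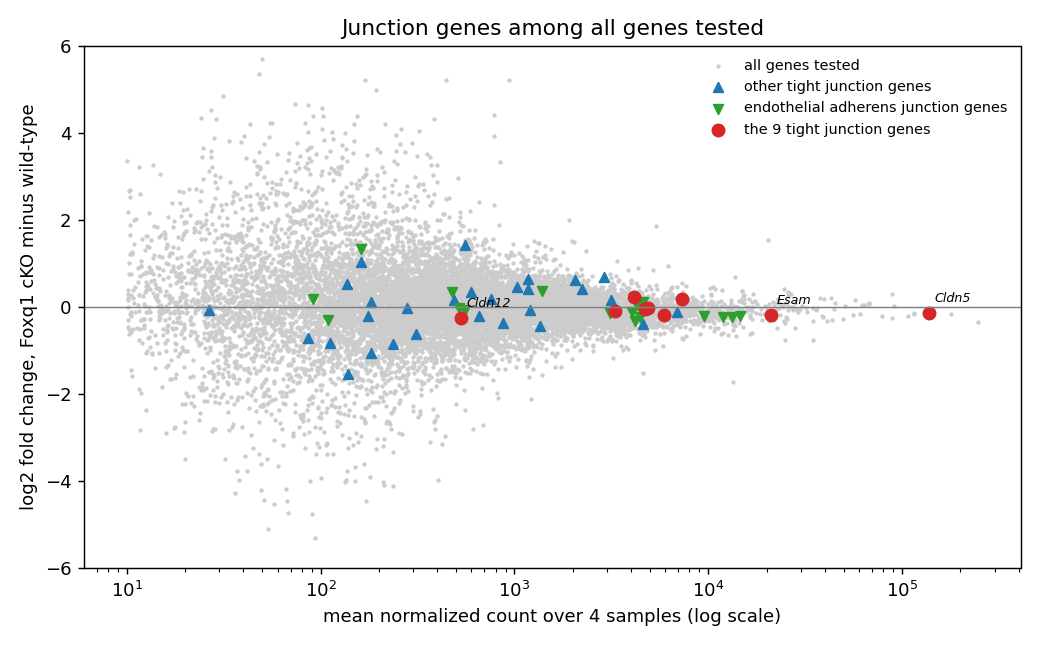
Log2 fold change (*Foxq1* cKO minus WT, y axis) against the mean normalized count over 4 samples (log axis) for all 12472 genes tested (grey), with the 9 tight junction genes in red, the other tight junction genes as blue triangles and adherens junction genes as green triangles. The 9 genes lie between -0.25 and 0.24, most of them among highly expressed genes, where the scatter of all genes is narrow.

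The narrow range of the 9 genes has to be read against their level. Their median absolute log2 fold change was 0.18, against 0.37 over all genes tested and 0.22 over the 3844 genes with a mean of at least 1000 normalized counts. The 29 other tight junction genes, many with low counts, had a median of 0.42, and the 17 adherens junction genes 0.21. Every one of the 9 genes except *Cldn12* had a mean above 1000.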

How the data were processed

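The RNA-seq samples compared were 2 WT and 2 *Foxq1* cKO. The authors deposited 1 table of normalized counts, a signal in which reads per gene were divided by 1 size factor per sample. Submitters' processing notes name Bowtie2 2.2.3, TopHat2 2.0.12, HTSeq 0.6.0 and mm9, with no roles, and the strand setting is not given in the sources used here. The table's 1207361 repeated lines were reduced to 12693 symbols, 8 of which had 2 identifiers with identical values. In each sample 100% of values were whole multiples of 1 read (tolerance 0.01), so reads were recovered. The table gives no coordinates, and those printed come from GENCODE M21 (GRCm38), which held 12685 of 12701 identifiers.

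limma 3.58.1 (eBayes with trend) in R 4.3.3 was run on log2 of the value plus 1 for genes whose mean reached 10, with Benjamini-Hochberg adjustment over all genes. DESeq2 1.42.0 and edgeR 4.0.16 (quasi-likelihood, TMM) on recovered reads, pseudocounts of 0.1 and 5, no filter and a minimum mean of 50, quantile and TMM scaling, no trend, a replicate block and leaving out each sample were alternatives. Scaling to endothelial markers was added after seeing the data. The main limma fit, edgeR and DESeq2 were also run on simulated data, and the other settings were not. For 1 gene, a two-sided exact permutation test over these 4 samples cannot give a p below 0.333. Amplified reads are not independent molecules. The genes and lists were chosen with earlier results of these data known. The text names the 9 genes, *Foxq1*, list genes with an unadjusted p under 0.05 (otherwise up to 3 with the most reads), leading markers and the 5 genes nearest to *Cldn5*; 1 list gene that this rule names is not reported here. Figures used Python 3.11.15 and matplotlib 3.10.9.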

Additional observations from a re-analysis of the deposited data

How the results depend on the processing

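None of the 9 tight junction genes had an unadjusted p under 0.05 in any of the 11 alternatives with all samples or the 4 fits with 1 sample left out, in which the lone sample of a group is assumed to vary like the others. Signs of small changes did turn. Under quantile normalization the log2 fold change was 0.096 for *F11r*, 0.062 for *Cgnl1* and 0.011 for *Lsr*, and the cause was not tested. Under scaling to endothelial markers it was 0.10, 0.077 and 0.038 in that order. That scaling divides each sample by 1 factor, so by construction it shifts all genes by nearly the same amount. With 1 sample left out, it ranged from -0.26 to 0.18 for *Cgnl1*, from -0.91 to 0.41 for *Cldn12*, from -0.12 to 0.087 for *F11r*, from -0.39 to 0.018 for *Ocln* and from -0.036 to 0.39 for *Tjp1*. The intervals within 2-fold numbered 5 without a trend, against 8. Genes at an unadjusted p under 0.05 numbered 651 in the reported fit and lay between 592 and 804 over alternatives with all samples. With 1 sample left out it ran from 276 (without *Foxq1* cKO 1) to 1569 (without WT 2). At an adjusted p under 0.05, DESeq2 gave 59 genes against 0. Counts at an unadjusted p under 0.05 with 1 sample left out were 0 to 3 for the other tight junction genes, 0 to 2 for adherens junction genes and 0 to 2 for the GTPase and actomyosin genes. The last list had 2 such genes, and 1 with a minimum mean of 50, under quantile normalization, in edgeR, with the replicate block and under marker scaling, and 0 without a trend. Both groups carry the numbers 1 and 2, and no source ties equal numbers to a shared litter or day. The differences between numbers 1 and 2 in the groups had a correlation of 0.032 over 12472 genes, and the replicate block gave 693 genes at an unadjusted p under 0.05. It changed no call among the 9 genes. With 2 samples per group, precision was limited by the spread between samples: the median standard error of the log2 fold change was 0.18 for the 9 genes and 0.50 for all genes tested.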

Other observations

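Small GTPases and actomyosin set the tension on junctions, and 31 of 32 such genes were tested. Of these, 0 were higher and 2 lower in *Foxq1* cKO ECs at an unadjusted p under 0.05 in limma, against 2.17% and 3.05% of all genes tested, and none passed adjustment. *Tiam1*, which encodes an exchange factor that activates Rac1, had 2639 and 1824 normalized counts in WT, and 1269 and 879 in *Foxq1* cKO samples. Its log2 fold change was -1.05 (standard error 0.314, unadjusted p = 0.0150, adjusted p = 0.857 in limma), and the unadjusted p was under 0.05 in 10 of 11 alternatives with all samples and in 2 of 4 with 1 sample left out. *Heg1*, a receptor of the CCM complex that steadies endothelial junctions, had 4829 and 4560 normalized counts against 3012 and 3819. Its log2 fold change was -0.47 (standard error 0.190, unadjusted p = 0.0487, adjusted p = 0.857 in limma), and it passed 0.05 in 5 of 11 alternatives with all samples and in 1 of 4 with 1 sample left out. The median log2 fold change of the 31 genes was -0.038.

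The genes whose values over the 4 samples lay closest to those of *Cldn5* were *Mrpl12*, *Akr1a1*, *Vcl*, *Pds5a* and *Pdzd11*, at Euclidean distances of 0.023 to 0.046 between centred log2 values, among 11403 genes with a mean of at least 50 normalized counts. Of the tight junction genes, *Lsr* was nearest to *Cldn5*, at 0.072 and rank 22, and *Cldn12* farthest, at 1.03. With 4 samples, many genes share such a pattern, and the distances are given as a description.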
